A study of Homo sapiens with 2 samples.

Results

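The cells described here are PC9-like, naive-like cells with little TOP2A and MKI67 RNA, 223 of the 8748 barcodes in the matrix. They were selected on measured values. A barcode had at least 1000 detected genes, at most 20% mitochondrial unique molecular identifiers (UMIs), EGFR at 150 CPM or more and no NKX2-1 UMI. The summed level of IGFBP3, FN1, HLA-B and CCDC80 was under 300 CPM, and that of TOP2A and MKI67 was at most 100 CPM, where CPM is the level of a gene, as its UMIs scaled to 1000000 UMIs of the barcode. The first 5 of these limits left 1559 naive-like cells, of which the 223 cells were 14.3% (Clopper-Pearson 95% interval 12.6% to 16.1%, counting error only). A further 589 cells (37.8%) lay between 100 and 400 CPM of TOP2A plus MKI67, and 747 (47.9%) at 400 CPM or more. The latter are called cycling naive-like cells below. Cells that passed the same limits on quality, EGFR and NKX2-1 but held IGFBP3, FN1, HLA-B and CCDC80 at 800 CPM or more numbered 2612 and are called persister-like. Of these, 1898 (72.7%, 95% interval 70.9% to 74.4%) had at most 100 CPM of TOP2A plus MKI67.

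The run pooled 5 populations of human lung adenocarcinoma cell lines, each tagged with a barcoded antibody. They were PC9 cells, which carry an activating EGFR deletion, left untreated or treated for 4 or 11 days with 150 nM osimertinib, which blocks mutant EGFR, and NCI-H358 cells left untreated or treated for 8 days with 500 nM sotorasib. The drugs were used to obtain drug-tolerant persister cells, and washing removed dead floating cells before the cells were pooled. The antibody tags were not used here, so that no barcode has a known line, drug or day, and PC9-like, naive-like and persister-like are names of gates and not of populations. All comparisons below are between groups of cells of 1 library. There are no replicates and no test was run. The 95% intervals cover counting error only and say nothing of the spread between cultures.

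A dividing cell passes from G1, in which growth factor signals through ERK and cyclin D prepare for division, to S phase, in which DNA is copied, and then through G2 to mitosis. E2F factors switch on the genes of replication, such as the MCM helicase subunits and cyclin E, around the start of S phase. MKI67, TOP2A, cyclin B, PLK1 and the kinesins accumulate later, under MYB-MuvB and FOXM1, and their RNAs are degraded or no longer made after mitosis. TOP2A and MKI67 are low both in resting cells and in the early part of the cycle of dividing cells.

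The 223 cells held 10311369 UMIs, with a median of 44696 UMIs and 6531 genes per cell, against 63355 UMIs and 7595 genes in the cycling naive-like cells. The TOP2A/MKI67-low persister-like cells had medians of 30163.5 UMIs and 5768 genes. The median mitochondrial share was 7.57% in the 223 cells, 7.61% in the cycling naive-like cells and 3.18% in the TOP2A/MKI67-low persister-like cells. MALAT1, a nuclear RNA, stood at 2565, 4341 and 19542 CPM in the same order. These differences in depth, mitochondrial share and nuclear RNA move with the groups, and their part in the results was not tested. All 8748 barcodes are distinct, and Scrublet, a doublet caller, marked 1 of the 223 cells, 8 of the cycling naive-like and 43 of the TOP2A/MKI67-low persister-like cells.

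The genes of the rule describe the choice and are no finding. TOP2A (topoisomerase II alpha, which untangles DNA; ENSG00000131747, chromosome 17, 40388525 to 40417896 on hg38) stood at 22.6 CPM over the 223 cells and 696.3 CPM over the cycling naive-like cells. MKI67 (the Ki-67 antigen of dividing nuclei; ENSG00000148773, chromosome 10, 128096659 to 128126423) stood at 30.9 and 317 CPM. The limit of 100 CPM cut through a continuous range, with 67 naive-like cells between 75 and 100 CPM and 71 between 100 and 125 CPM. Just inside that limit PLK1 stood at 14.8 CPM, CCNB1 at 154 CPM and MCM5 at 173 CPM. Just outside it they stood at 15.2, 171 and 167 CPM. For EGFR, 14 of the 223 cells lay between 150 and 200 CPM, and 12 cells were left out between 100 and 150 CPM. For the IGFBP3, FN1, HLA-B and CCDC80 sum, 11 of the 223 cells lay between 200 and 300 CPM, and 3 cells were left out between 300 and 400 CPM. The defining markers of other cells were mostly low or uninformative, but the summed level of FGFBP1 was higher in the 223 cells than in the cycling naive-like cells. NKX2-1 was absent by the rule, SFTA3 stood at 0.970 CPM and CEACAM5 at 1.46 CPM. CEACAM6, which the NCI-H358-like list also holds, stood at 364 CPM in the 223 cells and 366 CPM in the cycling naive-like cells. The log2 ratio of FGFBP1 between these groups ranged from 0.46 to 1.39 over the settings, with highest values of 599 and 556 CPM. MUC15 reached 154 and 17.8 CPM, with a UMI in 1.35% and 0.803% of the cells. Whether cells of another line were among the 223 was not tested. The 8 mesenchymal cell markers together came to 3.69 CPM.

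**Figure D1:**
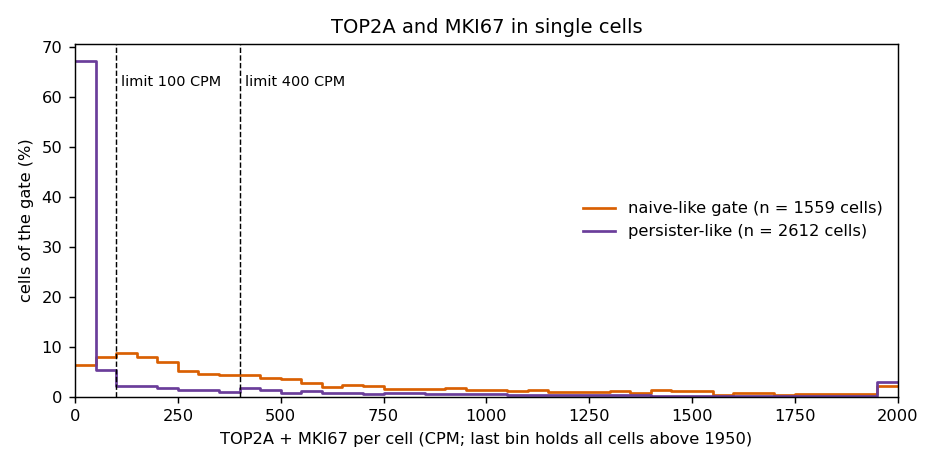
Percentage of cells (vertical axis) by summed TOP2A and MKI67 level in bins of 50 CPM (horizontal axis) for the 1559 naive-like and the 2612 persister-like cells, with the limits at 100 and 400 CPM as dashed lines. The naive-like cells spread over both limits without a gap, whereas 72.7% of the persister-like cells lie at or under 100 CPM.

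Naive-like cells almost always held some RNA of these markers. No UMI of either gene was found in 30 of the 1559 naive-like cells (1.92%, 95% interval 1.30% to 2.74%) and in 1446 of the 2612 persister-like cells (55.4%, 95% interval 53.4% to 57.3%). After thinning every cell to 10000 UMIs, which left out 4 and 35 shallower cells, the shares were 13.2% of 1555 and 67.2% of 2577 cells. RNA free in the droplets can add UMIs in either gate and was not subtracted.

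The label low-cycling held for genes of G2 and mitosis but not for most S phase genes. Against the cycling naive-like cells, most mitotic genes were lower, with PLK1 at 8.92 against 146 CPM. Most S phase genes were higher, with MCM5 at 170.0 against 75.1 CPM. Of 9946 genes measured at 5 CPM or more in either group, 124 (1.25%) were lower and 7 (0.0704%) were higher by 2-fold or more, on the scale of log2(CPM + 5), and the median log2 ratio of all genes was -0.04. The 52 measured G2/M genes other than TOP2A and MKI67 were all below 0, 40 of them by 2-fold or more, with a median of -1.90. Of the 43 S phase genes, 34 were above 0 and 9 below, with a median of 0.34. Among them 4 were higher by 2-fold or more and none was lower by 2-fold. TOP2A and MKI67 are themselves G2/M genes, so that the level of the G2/M list is not independent of the choice of cells. The cycling cells were chosen at high TOP2A and MKI67, late in the cycle, so that the S phase levels are not independent of it either. The number of higher genes was small and ranged from 2 to 31 over the alternative settings, whereas the median of the S phase list stayed between 0.24 and 0.63.

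The mitotic kinases and the proteins of the spindle and kinetochore gave the lowest ratios. PLK1, the kinase that drives entry into and progress through mitosis (ENSG00000166851, chromosome 16, 23677656 to 23690367), had a median of 0 CPM and a highest value of 149.9 CPM among the 223 cells, and a median of 133 and a highest value of 615 CPM among the 747 cycling cells. Most of the 223 cells thus lay below the middle of the cycling cells, though the ranges overlapped. Its log2 ratio was -3.44 (95% interval -3.64 to -3.24). AURKA, the centrosomal kinase that activates PLK1, stood at 12.2 against 181 CPM, and UBE2C, the ubiquitin-conjugating partner of the anaphase-promoting complex, at 55.5 against 410.2 CPM. The kinetochore protein CENPE and the kinesin KIF20A stood at 5.72 against 79.6 and at 5.24 against 72.7 CPM. CDK1, the mitotic kinase, had a log2 ratio of -2.37, and its partners CCNB1 and CCNA2 had ratios of -1.53 and -2.05. BIRC5, a subunit of the chromosomal passenger complex, was less reduced, with 96.0 against 168 CPM, and PTTG1, securin, stood at 222 CPM in both groups. Mitotic genes thus ranged from far lower to level between the groups.

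Of the 124 lower genes, 84 were outside the S phase and G2/M lists. They included INCENP and SGO2, which act at the centromere, the condensin subunit NCAPG, the kinesin KIFC1, and the linker histone gene HIST1H1D with 14.1 against 91.6 CPM. Of 13 measured histone genes 8 were lower by 2-fold or more, and the median was -1.08. HIST1H4C, the most abundant of them, stood at 1539.9 against 3969 CPM, with 2889 CPM in the naive-like cells between the limits. Most replication-dependent histone RNAs have no poly(A) tail and the library was primed on poly(A), which limits what these levels show.

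Among the 7 higher genes, DTL, which directs CDT1 and other replication proteins to degradation, stood at 42.9 against 7.77 CPM, a log2 ratio of 1.91 (95% interval 1.76 to 2.06). CCNE2, a cyclin E that activates CDK2 at the G1/S transition, stood at 18.7 against 4.39 CPM, and E2F1, a transcription factor of that transition, at 33.5 against 10.3 CPM. CDCA7, a chromatin remodelling cofactor, stood at 139 against 51.0 CPM, and the mismatch repair gene MSH6 at 115 against 50.4 CPM. SNHG18, a small nucleolar RNA host gene named here only because it completes the 7, stood at 22.2 against 8.39 CPM. MCM5, a subunit of the replicative helicase (ENSG00000100297, chromosome 22, 35400134 to 35425431), had a median of 159 CPM and a highest value of 609.6 CPM in the 223 cells, and a median of 54.8 and a highest value of 372 CPM in the cycling cells. The middle of the 223 cells thus lay above that of the cycling cells, and the ranges overlapped. Its log2 ratio was 1.13 (95% interval 1.05 to 1.21).

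Further replication genes were higher by less than 2-fold. MCM6, SLBP, the histone RNA binding protein, CCNE1, the other cyclin E, CDC6, a licensing factor, and GINS2, a helicase subunit, had log2 ratios of 0.99, 0.92, 0.91, 0.83 and 0.73. CCNE1 stood at 54.7 against 26.8 CPM, which differed by more than 2-fold before the pseudocount was added. S100A2, a calcium-binding protein, also had a ratio of 1.00, but 2 of the 223 cells, at 15190 and 6018 CPM, made up most of it. The next cell had 168 CPM, and without those 2 cells the level was 25.1 CPM. Leaving out every cell at 1000 CPM of S100A2 or more gave 8 higher and 124 lower genes.

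The G2/M and the S phase genes, whose medians had opposite signs, also differed in short sequences near their starts. Mitotic promoters are known for the cell cycle homology region (CHR), TTTGAA, which MuvB complexes bind, and replication promoters for E2F sites. In the 250 bases before the start of the gene in RefSeq (GRCh38.p14), TTTGAA on either strand was found in 24 of 45 matched G2/M genes (53.3%), 2 of 32 matched S phase genes (6.25%) and 13.3% of all 35116 promoters. An E2F motif, TTTGGCGC, TTTCGCGC or TTCCCGCC on either strand, was found in 3 of 45 (6.67%), 14 of 32 (43.8%) and 3.63%. The CCAAT box was found in 31 of 45, 22 of 32 and 32.0%, and so did not set the lists apart. A match is a description of letters and does not show that a factor binds there. The 4 stretches of 60 bases below are from G2/M genes that were lower, with the CHR letters in capitals, on the strand of the gene, 5′ to 3′.
CENPA, chr2:26785996-26786055, plus strand: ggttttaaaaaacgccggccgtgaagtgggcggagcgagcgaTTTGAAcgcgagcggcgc
HJURP, chr2:233854614-233854673, minus strand: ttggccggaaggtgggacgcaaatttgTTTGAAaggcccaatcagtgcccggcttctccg
HMMR, chr5:163460572-163460631, plus strand: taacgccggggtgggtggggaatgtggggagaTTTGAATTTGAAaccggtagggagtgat
GTSE1, chr22:46296810-46296869, plus strand: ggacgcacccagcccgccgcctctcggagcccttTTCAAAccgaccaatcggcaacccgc
The copy in GTSE1 is on the opposite strand and that in HMMR is a direct repeat. Their log2 ratios were -2.78 for CENPA, which marks the centromere, -2.65 for HJURP, its chaperone, -2.62 for HMMR, a spindle protein, and -2.57 for GTSE1, a microtubule-binding protein. The next 4 stretches are from S phase genes with an E2F motif in capitals, which in MCM6 is an overlapping pair. In GINS2 and CASP8AP2 the motif is on the opposite strand. The 250 bases of MCM6 and CASP8AP2 held 4 and 2 matches.
DTL, chr1:212035688-212035747, plus strand: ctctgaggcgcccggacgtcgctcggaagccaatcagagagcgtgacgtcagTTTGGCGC
MCM6, chr2:135876497-135876556, minus strand: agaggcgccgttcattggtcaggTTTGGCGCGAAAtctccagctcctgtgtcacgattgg
GINS2, chr16:85688955-85689014, minus strand: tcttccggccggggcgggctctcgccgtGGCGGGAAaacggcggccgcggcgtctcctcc
CASP8AP2, chr6:89829741-89829800, plus strand: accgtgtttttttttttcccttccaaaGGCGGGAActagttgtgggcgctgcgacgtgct
Their log2 ratios were 1.91, 0.99, 0.73 and, for CASP8AP2, a gene of histone RNA production, 0.47. CASP8AP2 and GTSE1 were taken for their motifs from the lists and not by the rule for named genes.

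In single cells the medians of the S phase and G2/M lists differed between the 223 cells, the cycling naive-like and the TOP2A/MKI67-low persister-like cells. The summed level of the 43 S phase genes had a median of 2883 CPM per cell in the 223 cells, 1832 CPM in the cycling naive-like and 472 CPM in the TOP2A/MKI67-low persister-like cells. That of the 52 G2/M genes had medians of 2718, 7846 and 919 CPM. The 589 naive-like cells between the limits had medians of 3037 CPM of S phase genes, above that of the 223 cells, and 3963 CPM of G2/M genes. Neither the G2/M nor the S phase sums are independent of the limits on TOP2A and MKI67. Of the 223 cells, 183 lay above the median of the cycling cells in S phase genes, and 0 in G2/M genes. All 223 lay above the median of the TOP2A/MKI67-low persister-like cells in S phase genes, and 222 in G2/M genes. Of the TOP2A/MKI67-low persister-like cells, 4.64% reached the median of the 223 cells in S phase genes and 3.95% in G2/M genes. The S phase sums of the 223 cells, from 491 to 5047 CPM, lay within the range of the TOP2A/MKI67-low persister-like cells, from 0 to 7284 CPM.

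**Figure D2:**
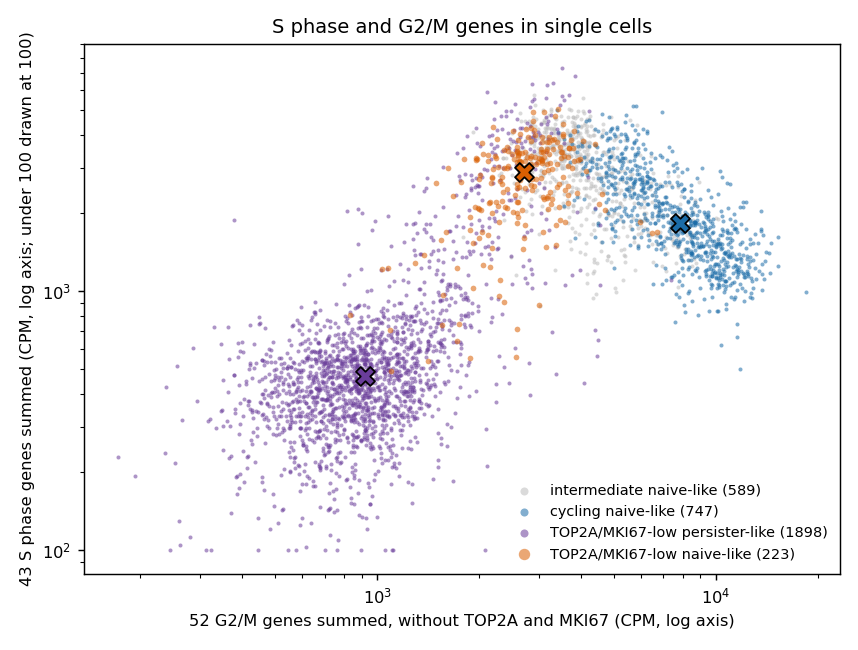
Summed S phase genes against summed G2/M genes without TOP2A and MKI67 per cell, in CPM on log axes, with crosses at group medians. The 223 cells (orange) lie around 2883 CPM of S phase and 2718 CPM of G2/M genes, with 183 of them above the median of the cycling naive-like cells in S phase genes and 0 in G2/M genes, and at higher medians of both sums than the 1898 TOP2A/MKI67-low persister-like cells (purple). The naive-like cells between the limits (grey) have medians of 3037 and 3963 CPM.

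Across the whole naive-like gate the S phase genes were highest in the middle of the range of TOP2A and MKI67, while the mitotic genes were highest at its upper end. The cells were put in 6 bins, with 30 cells without a UMI, 69 up to 50 CPM, 124 from 50 to 100, 262 from 100 to 200, 327 from 200 to 400 and 747 at 400 CPM or more, the first 3 of which make up the 223 cells. The S phase list summed to 2176, 2595, 2939.8, 3165, 2971 and 2060.4 CPM in this order. The G2/M list summed to 2076, 2575, 3015, 3689, 4736 and 8079.8 CPM. MCM5 stood at 142, 183, 168, 161, 138 and 75.1 CPM and was thus highest within the 223 cells. CCNE1 was at 46.0 CPM in the first bin, 57.5 CPM in the third and 26.8 CPM in the last. RRM2 and RRM1, subunits of ribonucleotide reductase, were instead lower in the 223 cells than in the last bin. RRM2 stood at 24.2, 49.8 and 61.4 CPM in the first 3 bins and 94.3 CPM in the last. RRM1 stood at 59.3, 65.4 and 90.4 CPM and at 107 CPM in the last. PLK1 went from 0.836 CPM in the first bin to 11.4, 50.4 and 146 CPM in the third bin, from 200 to 400 CPM and in the last bin. Median depth differed along the bins, from 38709 to 63355 UMIs per cell, and its part in the pattern was not tested.

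The 30 cells without a TOP2A or MKI67 UMI differed somewhat from the rest of the 223. They had 74.4 CPM of CCNB1, against 107 and 146 CPM in the next 2 bins, and 15.9 CPM of CDKN2B, an inhibitor of CDK4 and CDK6, against 5.01 and 6.29 CPM. CCNB1 accumulates with TOP2A and MKI67, so that its level is not independent of the choice of this bin. The CDKN2B level rests on few UMIs, and the bin had the lowest median depth, 38709 UMIs per cell. ERK targets went different ways, with FOSL1 at 61.0 against 90.7 and 112 CPM and DUSP6 at 63.5 against 42.4 and 52.3 CPM, and the whole ERK output list summed to 953 against 926 and 956 CPM. MALAT1 stood at 4485 CPM, against 2333 and 2301 CPM, and at 3743 CPM without the S100A2-high cells of this bin. The interferon list summed to 239.8 CPM, against 110 and 90.9 CPM, but 97 of its 287 UMIs came from 1 cell, and without the S100A2-high cells it summed to 144 CPM over 28 cells. HOPX, a homeobox gene of alveolar type 1 cells, stood at 9.19 CPM from 11 UMIs in 5 cells, 7 of them in 1 cell.

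**Figure D3:**
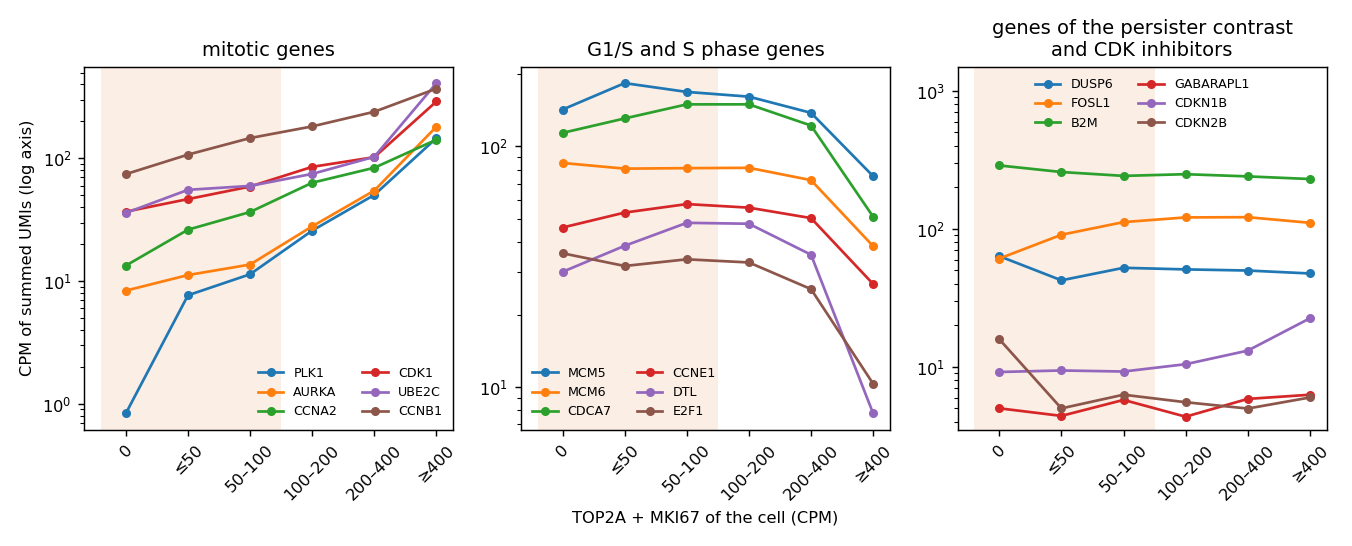
Level of 18 genes in CPM of summed UMIs (vertical, log axis) over the 6 bins of TOP2A plus MKI67 in the naive-like gate (horizontal), with the bins of the 223 cells shaded. PLK1 reaches 146 CPM and CDKN1B 22.5 CPM in the last bin, MCM5 goes from 183 to 75.1 CPM, and DUSP6 stays between 42.4 and 63.5 CPM.

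On the log2 ratio scale, most lists outside the cell cycle held no gene past 2-fold between the 223 and the cycling naive-like cells. The 84 lower genes outside the S phase and G2/M lists were not all sorted by function. Beyond S phase, G2/M and histone genes, the only list with a member past 2-fold was that of cyclins, CDKs and G1 control, of whose 21 measured members 2 were higher (CCNE2 and E2F1) and 4 lower (CCNA2, CCNB1, the transcription factor FOXM1 and CDC25B, a phosphatase that activates CDK1). No member was past 2-fold in the lists of ERK output (17 measured, median -0.01), MYC and ribosome biogenesis (20, -0.12), quiescence and FOXO targets (17, -0.05), p53 targets (12, 0.02), MHC class I (8, 0.07), lysosome and autophagy (18, 0.06), glycolysis (14, -0.01) and YAP/TEAD targets (17, 0.04). The nuclear RNAs MALAT1 and NEAT1 stood at 2565 against 4341 CPM and at 280 against 366 CPM, with a median of -0.57. The share of UMIs in cytosolic ribosomal protein genes was 25.8% against 24.2%. DUSP6, the phosphatase that ERK induces and that inactivates it, stood at 50.3 against 47.6 CPM, MYC at 143 against 124.8 CPM and CCND1, cyclin D1, at 231 against 290.5 CPM.

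On the log2 ratio scale, no inhibitor of cyclin-dependent kinases differed by 2-fold between the 223 cells and the cycling naive-like cells. Of 6 measured members of this list 3 were above 0 and 3 below. CDKN2A (p16 and p14ARF) was the most abundant of those given here, at 186 against 162 CPM, with an interval of the log2 ratio of 0.13 to 0.27, and its ratio stayed above 0 under every alternative setting. CDKN1A (p21) stood at 10.3 against 9.29 CPM and CDKN2B (p15) at 6.98 against 6.01 CPM, with intervals of the log2 ratio of -0.11 to 0.31 and -0.09 to 0.34. CDKN1B (p27), which accumulates in resting cells, was lower, at 9.31 CPM (95% interval 7.54 to 11.4) against 22.5 CPM (21.2 to 23.9). These CPM differed by more than 2-fold, which the pseudocount brought under the limit. The log2 ratio of CDKN1B ranged from -1.19 to -0.54 over the settings and that of CDKN2D from -1.06 to -0.24. Both thus passed 2-fold under some settings. TXNIP, a FOXO and glucose-responsive gene, stood at 77.3 against 100.3 CPM. RBL2 (p130), the pocket protein of resting cells, stood at 12.4 against 11.2 CPM.

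Against all 2612 persister-like cells, 279 of 10797 genes (2.58%) were higher and 1034 (9.58%) lower by 2-fold or more, with a median log2 ratio of -0.14 over all genes. IGFBP3, FN1, HLA-B and CCDC80 chose the groups, and genes that move with them are not independent of that choice. The persister-like cells were mixed in these markers, since 463 of them (17.7%) had 400 CPM or more of TOP2A plus MKI67. The G2/M genes were lower in the 223 cells, with 14 of 52 lower and 1 higher by 2-fold and a median of -0.69, while the S phase genes were higher, with 11 of 43 and a median of 0.77. The persister-like cells were therefore also limited to TOP2A plus MKI67 of at most 100 CPM.

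With both groups held to the same limit on TOP2A and MKI67, the 223 cells had more RNA of replication, ERK-induced, chaperone and ribosome biogenesis genes and less of MHC class I, interferon, lysosome and quiescence genes than the 1898 TOP2A/MKI67-low persister-like cells. Of 10890 genes, 692 (6.35%) were higher and 1293 (11.9%) lower by 2-fold or more, and the median of all genes was -0.13. With TMM scaling factors that median moved to 0.00 and the counts to 901 and 1086, so that the higher share of the called genes was 45.3% in place of 34.9%. In the comparison with all persister-like cells TMM factors gave 421 higher and 865 lower genes, 32.7% in place of 21.2%.

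The limit on 2 markers did not make the groups alike in the cell cycle. Of the S phase genes 36 of 43 were higher by 2-fold or more with a median of 1.40, and of the G2/M genes 26 of 48 with a median of 1.06, and none of either list was lower by 2-fold. TOP2A itself still stood at 22.6 against 7.36 CPM and MKI67 at 30.9 against 4.69 CPM. PTTG1 stood at 222 against 24.7 CPM, BIRC5 at 96.0 against 12.1 CPM and CCNB1 at 125.1 against 25.3 CPM. CCNE1 stood at 54.7 against 10.5 CPM. Of the 14 chromatin genes of replicating cells 10 were higher, with a median of 1.53, led by the high mobility group genes HMGA2, at 103 against 9.38 CPM, and HMGA1, with a log2 ratio of 2.36. CDKN3 had a ratio of 2.89. It is listed with the CDK inhibitors but is a phosphatase of CDKs that cycling cells express. CCND1 stood at 231 against 236 CPM, with an interval of the log2 ratio of -0.09 to 0.03.

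Genes that ERK induces were higher in the 223 cells. Of 17 measured members 11 were higher and 1 lower by 2-fold or more, with a median of 1.23. DUSP6 (ENSG00000139318, chromosome 12, 89347235 to 89352501) had a median of 39.3 and a highest value of 260.2 CPM in the 223 cells, and a median of 0 and a highest value of 329.9 CPM in the TOP2A/MKI67-low persister-like cells. A DUSP6 UMI was found in 74.4% of the 223 cells and in 6.53% of the TOP2A/MKI67-low persister-like cells, so that the ranges overlapped and the shares of cells with a UMI differed. Over the groups DUSP6 stood at 50.3 against 3.11 CPM, a log2 ratio of 2.77 (95% interval 2.63 to 2.91). FOSL1, an AP-1 subunit, stood at 99.1 against 11.9 CPM, PHLDA1 at 119 against 16.5 CPM and the ETS factor ETV4 at 45.9 against 4.93 CPM. EPHA4, an ephrin receptor, was the lower member, at 5.24 against 39.8 CPM. The EGFR ligands AREG, EREG and HBEGF had ratios of 1.12, 1.12 and 1.21, and the receptors ERBB2 and ERBB3 ratios of -1.04 and -1.50. The ratio of AREG went to -0.35 with persister-like cells of any EGFR and NKX2-1 level.

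Genes of growth and metabolism were higher as well. Of 20 MYC and ribosome biogenesis genes 14 were higher by 2-fold or more with a median of 1.16, such as the ribosome assembly factor BOP1 at 136 against 22.7 CPM and the methyltransferase FBL at 255 against 88.9 CPM. MYC itself stood at 143 against 57.5 CPM. Of 15 chaperones 8 were higher, with HSPD1, the mitochondrial chaperonin, at 1474 against 481 CPM. Of 14 glycolysis genes 6 were higher, with ENO1 at 1076 against 291 CPM and LDHA at 1597 against 587 CPM. Of the 13 mitochondrially encoded genes 10 were higher, with a median of 1.22. Their share of UMIs is also a quality limit of the gates and had medians of 7.57% against 3.18%. The part of cell quality in this difference was not tested. Single genes with the largest ratios included the laminin receptor subunit ITGA6 at 350.8 against 33.0 CPM, the keratin KRT6B at 85.9 against 4.90 CPM, the phosphate transporter SLC20A1 at 159 against 18.9 CPM and S100A9 at 508 against 70.6 CPM.

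The lower genes belonged to several groups that the persister-like gate carries at high level. Of 10 measured MHC class I genes 9 were lower, with a median of -2.10. B2M, the light chain of MHC class I (ENSG00000166710, chromosome 15, 44711358 to 44718851), had a median of 222 and a highest value of 1002 CPM in the 223 cells, and a median of 1439 and a highest value of 8012 CPM in the TOP2A/MKI67-low persister-like cells. The highest of the 223 cells thus lay below the persister-like median, and the log2 ratio was -2.55. HLA-B was one of the genes of the rule. Of 15 interferon response genes 12 were lower, IFITM3 at 16.8 against 296 CPM among them, and of 8 complement and defence genes 7 were lower, with SAA1 at 2.72 against 74.2 CPM. Of 10 NF-kB targets 6 were lower, with the adhesion molecule ICAM1 at 4.75 against 116 CPM and the cytokine IL32 at 3.59 against 251 CPM.

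Of 19 lysosome and autophagy genes 11 were lower, with a median of -1.05. GABARAPL1, which coats autophagosomes, had a median of 0 and a highest value of 69.8 CPM in the 223 cells, and a median of 184 and a highest value of 1874 CPM in the TOP2A/MKI67-low persister-like cells. The log2 ratio was -4.54 (95% interval -4.73 to -4.33). PSAP, the precursor of lysosomal activator proteins, stood at 103 against 809.7 CPM. Of 20 quiescence and FOXO targets 11 were lower and none higher by 2-fold, with a median of -1.50. CITED2 and YPEL3 stood at 31.1 against 258 CPM and at 7.86 against 113 CPM, and TXNIP at 77.3 against 281 CPM. CDKN2B stood at 6.98 against 99.9 CPM and CDKN1A at 10.3 against 20.7 CPM. Of 17 YAP/TEAD targets 9 were lower, with ANKRD1 at 13.97 against 149.7 CPM, and of 10 AP-1 subunits 4, JUND at 103 against 385 CPM among them. FOSL1, which was higher in the 223 cells, is counted with ERK output and not in this AP-1 list. HOPX stood at 1.46 against 7.86 CPM. The mesenchymal cell markers, which summed to 3.69 CPM in the 223 cells, summed to 36.4 CPM in the TOP2A/MKI67-low persister-like cells, and their part in these differences was not tested.

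**Figure D4:**
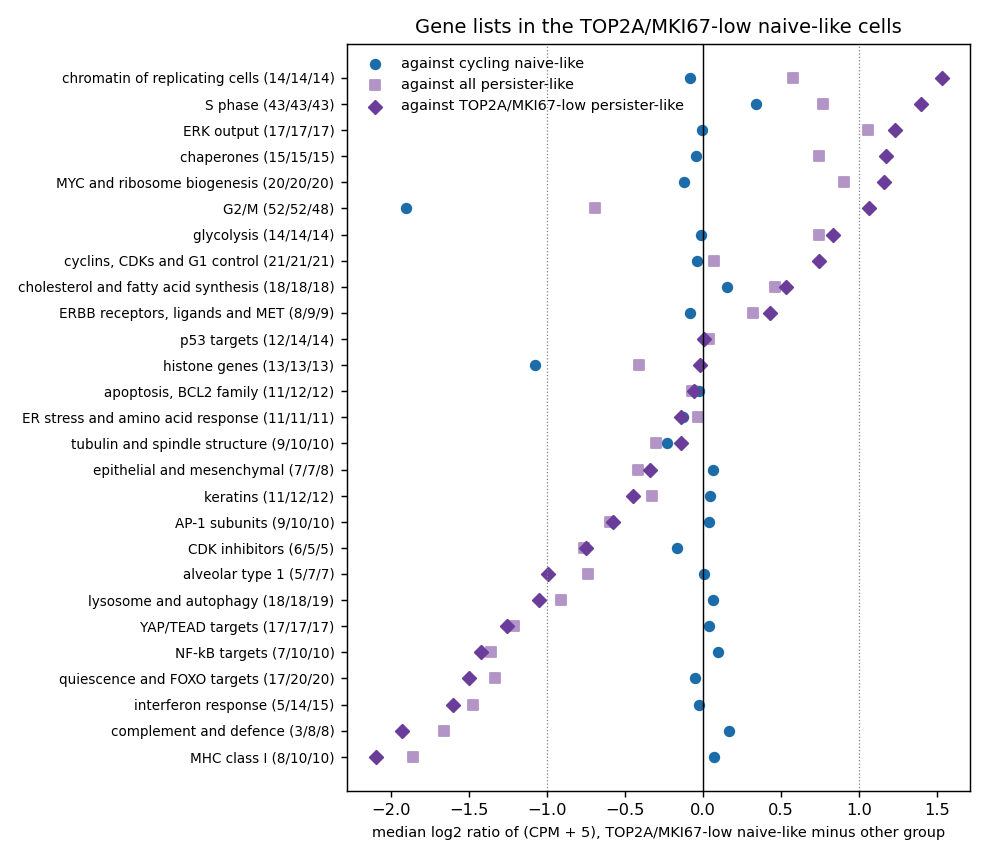
Median log2 ratio of (CPM + 5) for 27 gene lists, the 223 cells minus the cycling naive-like, all persister-like or TOP2A/MKI67-low persister-like cells, with the number of measured members per contrast in brackets. Against the cycling cells the G2/M (-1.90) and histone (-1.08) lists are the ones past 2-fold, whereas against the TOP2A/MKI67-low persister-like cells lists range from 1.53 for chromatin genes to -2.10 for MHC class I.

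The 223 cells were not uniform in replication genes. They were ranked by the summed level of MCM2 to MCM7 and PCNA, which chose 75 cells at up to 689.6 CPM, 74 cells from 691 to 907 CPM and 74 cells from 909 to 1524 CPM. The rest of the S phase list, without those 7 genes, summed to 1521, 2326 and 2880.2 CPM in these 3 sets, and the G2/M list to 2630.1, 2752 and 2904 CPM. CDK1 stood at 19.5, 55.4 and 82.1 CPM and CCNE2 at 6.19, 19.4 and 30.6 CPM. RRM2, a ribonucleotide reductase subunit, stood at 27.1, 53.1 and 79.7 CPM, below the 94.3 CPM of the cycling naive-like cells in each set. In the opposite direction, CENPF, a kinetochore protein, stood at 109, 71.1 and 61.9 CPM, CCNB1 at 140.0, 136 and 98.8 CPM and TXNIP at 100.2, 72.8 and 58.9 CPM. The set lowest in MCM and PCNA genes thus had the most CENPF and CCNB1 and the least CDK1. Of 10094 genes, 42 were higher and 9 lower by 2-fold or more in the highest set than in the lowest, 12 of the 42 from the 38 other S phase genes and 2 from 49 G2/M genes. Since the sets were cut on genes of S phase, these values only describe which genes go with them, and RRM2, CENPF and TXNIP were named here after their values were known.

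The 75 cells lowest in MCM and PCNA genes were also compared with the TOP2A/MKI67-low persister-like cells. The rule still held these groups apart in IGFBP3, FN1, HLA-B and CCDC80, and genes that move with them are not independent of that choice. The 75 cells had 55.1 CPM of DUSP6 against 3.11 CPM, 271 CPM of B2M against 1503 CPM and 6.19 CPM of GABARAPL1 against 233 CPM. Their MCM and PCNA genes summed to 483 CPM, against 527 CPM in the cycling naive-like and 212 CPM in the TOP2A/MKI67-low persister-like cells. In this comparison, added after seeing the data, 548 genes were higher and 1260 lower by 2-fold or more. The medians of the S phase and G2/M lists were 0.94 and 0.85, where the S phase list includes the MCM and PCNA genes that chose the 75 cells.

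**Figure D5:**
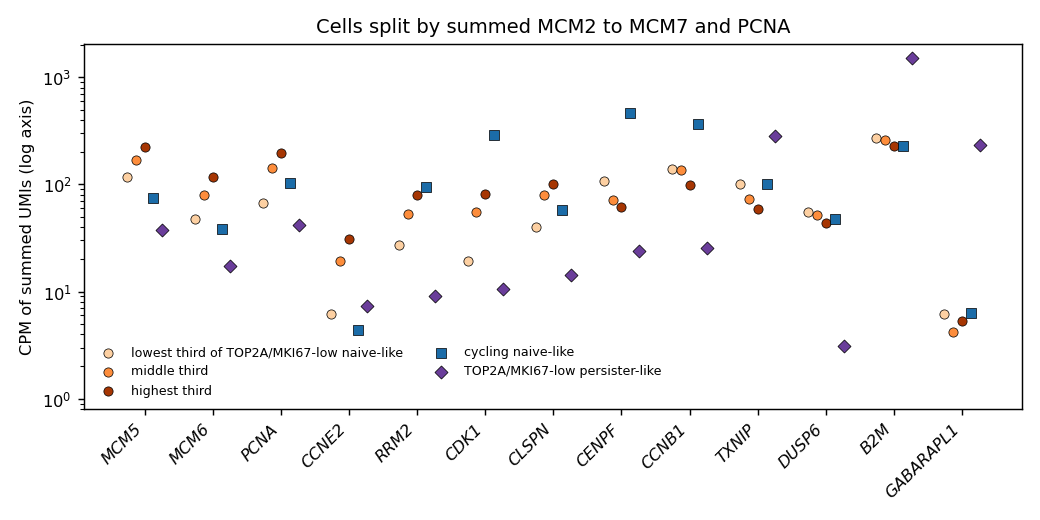
Level of 13 genes in CPM of summed UMIs (vertical, log axis) in the 223 cells split into 3 sets by summed MCM2 to MCM7 and PCNA (light to dark orange), in the cycling naive-like (blue) and in the TOP2A/MKI67-low persister-like cells (purple). CDK1 goes from 19.5 to 82.1 CPM over the sets and CENPF from 109 to 61.9 CPM, while B2M stays between 227 and 271 CPM, against 1503 CPM in the persister-like cells.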

How the data were processed

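RNA of 1 pooled run was sequenced from single cells in droplets (10x Genomics). The authors deposited raw counts of UMIs for each gene and barcode, made with Cell Ranger 7.1.0 (file header) on hg38 (the submitters' notes). Their filter on barcodes is not given in the sources used here. The run is listed as a gene expression library and a hashtag library, and no hashtag counts were analysed here.

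Cells were selected on their own CPM by the limits given in the report. The members, gene lists, limits and named genes were chosen with earlier results of these data known, so that no pattern shown before is independent support. UMIs were summed per group, scaled to CPM of the total, and compared as log2 ratios of (CPM + 5) where either group reached 5 CPM, called at 2-fold. Levels have exact Poisson intervals and shares exact Clopper-Pearson intervals (both 95%, counting error only). No test was run, since cells are not replicates. Doublets called by Scrublet in scanpy 1.11.5 (635 barcodes, 7.44%, at a threshold of 0.145) were kept and left out as an alternative.

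The named genes were, per contrast, the 12 highest and the 12 lowest by ratio where either group reached 50 CPM (mitochondrial, ribosomal protein and clone-named genes and the genes of the rule left out), the 12 lowest outside the S phase and G2/M lists in the first contrast, up to 4 members of each of 30 lists with the largest absolute ratio, and a fixed set of cell cycle and persister genes. Genes outside this rule, such as SNHG18, GTSE1, TXNIP, INHBA and CLSPN, were named after their values were known. Gene positions are from GENCODE 44 on hg38 and promoters from RefSeq on GRCh38.p14.

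The contrast was tested on simulated data for the comparison of the 223 cells with the cycling naive-like cells. For simulated ratios of 0.25, 0.5, 2 and 4 (50 genes each) the direction was recovered for 50 of 50 genes, the true ratio lay within the interval for 48, 45, 46 and 49, and 0 of 9620 genes simulated without a change were called. The simulated counts were Poisson draws from a summed profile, the same model as the intervals, without spread between cells. They check the calculation only and cannot show how reliable the calls are on these cells. Alternatives were edgeR 4.0.16 TMM factors, totals leaving out mitochondrial and ribosomal protein genes, other pseudocounts, filters and limits of the gates, the mean of CPM per cell, deeper cells only, and cells thinned to 10000 UMIs. Scripts used Python 3.11.15 and R 4.3.3.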

Additional observations from a re-analysis of the deposited data

How the results depend on the processing

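With limits of 50 and 200 CPM in place of 100 CPM on TOP2A plus MKI67, 99 and 485 cells were chosen. The other alternatives gave 178 to 235 cells. Of the counts of genes past 2-fold, that of the higher genes against the cycling naive-like cells depended most on the settings. It was 7, and 17 with mitochondrial and ribosomal protein genes left out of the total, 27 and 2 with pseudocounts of 1 and 20 CPM, 15 with thinned cells, 15 and 11 with limits of 50 and 200 CPM, 31 with cycling cells from 800 CPM and 11 with the IGFBP3, FN1, HLA-B and CCDC80 sum under 150 CPM. A pseudocount of 20 CPM gave 75 called genes in this comparison, 73 of them lower. It gave 845 (312 higher and 533 lower) against the TOP2A/MKI67-low persister-like cells and 510 (106 and 404) against all persister-like cells, where a pseudocount of 1 CPM gave 2029 (458 and 1571). The higher genes in this last comparison were 421 with TMM factors and 449 with those genes left out of the total. All other counts stayed within 1.5 times.

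The median of the G2/M list against the cycling cells ranged from -2.21 to -1.25 and that of the S phase list from 0.24 to 0.63. Against the TOP2A/MKI67-low persister-like cells they ranged from 0.65 to 1.42 and from 0.91 to 1.78, ERK output from 0.72 to 1.51 and MHC class I from -2.36 to -1.44. Of the named genes, 2 changed sign after a 2-fold call, both against the TOP2A/MKI67-low persister-like cells. AREG went to -0.35 and S100A2 to -0.0221 with persister-like cells of any EGFR and NKX2-1 level, and S100A2 to -0.34 with EGFR at 250 CPM or more. The cause was not tested. No paired analysis was possible because there is 1 library. Depth limits genes near 5 CPM most, since 1 CPM over the 223 cells is about 10.3 UMIs.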

Other observations

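A few genes outside the cell cycle stood between the cycling naive-like and the TOP2A/MKI67-low persister-like cells in the 223 cells. PLK2, a kinase induced by stress, stood at 66.5 CPM in the cycling naive-like cells, 109 CPM in the 223 cells and 261 CPM in the TOP2A/MKI67-low persister-like cells. GADD45A, a growth arrest and DNA damage gene, stood at 62.6, 98.0 and 253 CPM and INHBA, an activin subunit named after its values were known, at 50.8, 72.8 and 201 CPM. Over the bins of TOP2A plus MKI67, PLK2 went from 110.3 CPM without a UMI to 66.5 CPM in the last bin. GADD45A and INHBA did not follow this course. They stood at 61.8 and 51.0 CPM without a UMI, level with 62.6 and 50.8 CPM in the last bin. From 0 to 50 CPM they stood at 107 and 77.2 CPM. The highest GADD45A value among the 223 cells was 2216 CPM, against 320 CPM among the cycling naive-like cells.

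The stress-induced chaperones HSPA1A and DNAJB1 were lower in the 223 cells than in the cycling naive-like cells, at 115 against 192 CPM and 183 against 271 CPM, under the 2-fold limit. The tubulin gene TUBA1C stood at 526 against 955 CPM, also under it. CDK6, a kinase of G1, stood at 51.0 CPM in the 223 cells, 52.2 CPM in the cycling naive-like cells and 140.1 CPM in the TOP2A/MKI67-low persister-like cells. LMO7, in the alveolar type 1 list, stood at 14.3, 19.2 and 146 CPM.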
